A study of Homo sapiens with 6 samples.

Results

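The transcription regulators of kidney development PAX2, PAX8, WT1, SIX2, EYA1, SALL1, LHX1 and GATA3 (8 genes) were followed in HEK293 cells transfected with an siRNA against the chromatin protein BAHD1. Members were all probe sets whose annotated gene symbol is one of these 8 genes, dim ones included, which gave 22 of the 54675 probe sets on the array. HEK293 is a human line derived from embryonic kidney. The cells were transfected for 72 h with a BAHD1 siRNA (3 biological replicates) or with a control siRNA (3 biological replicates), and biotin-labelled RNA copied from the total RNA of each sample by oligo(dT) priming was hybridised to 1 array. An siRNA is meant to lower a transcript without removing the gene, and the labels name 1 BAHD1 siRNA treatment and no second siRNA, rescue or untransfected sample. The array reads RNA from the whole culture, so fewer cells expressing a gene and less RNA per cell cannot be told apart.

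These genes act in a connected network. PAX2 and PAX8 are paired-box factors of the nephric duct and early nephron, WT1 is a zinc finger factor of the nephron progenitors and later of podocytes, and SIX2 is the homeodomain factor that keeps progenitors self-renewing. EYA1 is a transcriptional coactivator that partners SIX2 and its relatives, SALL1 is a zinc finger repressor of the progenitors, LHX1 is a LIM homeodomain factor needed for the first nephron structures, and GATA3 marks the duct and collecting system. In mouse, Gata3 is known to act downstream of Pax2 and Pax8 in the nephric duct. BAHD1 is known for heterochromatin formation and gene silencing, and the comparison asks which transcripts differ after transfection with the BAHD1 siRNA.

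GATA3 was the single member gene with a probe set past the threshold. It rose in BAHD1 siRNA cells, by 1.35-fold on the brightest of its 3 probe sets. This call was lost in 8 of 16 alternatives, which were other processing or one array left out. A second GATA3 probe set and 1 each of PAX2, SIX2 and SALL1 were also higher on every BAHD1 siRNA array than on any control siRNA array, without passing the threshold. The second SIX2 probe set lay the other way. Among all probe sets tested, 13.4% were higher without overlap, 12.2% were lower without overlap, and 4.45% passed the threshold. PAX8, WT1 and EYA1 overlapped between the groups, and LHX1 was too dim to be tested.

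The upstream sequences of GATA3 and SIX2 are shown because GATA3 carries the one call among the members and SIX2 is the member whose probe sets disagree. RefSeq windows of GRCh38.p14 were matched for 5 of the 8 genes (GATA3, PAX2, PAX8, SIX2 and WT1), 14 windows in all, and the 250 bases before each annotated start were searched on both strands. Capitals mark a GATA motif (the letters AGATAA or else AGATAG or else TGATAA or else TGATAG), a WT1-type motif (GCGGGGGCG or else GCGTGGGCG) or a CCAAT box (CCAAT), and the motifs overlap nowhere in the SIX2 window. The windows are those before the first and the fourth of 6 annotated GATA3 starts (chr10:8045083-8045332 and chr10:8053391-8053640, plus strand) and the one before the SIX2 start (chr2:45009453-45009702, minus strand).
GATA3 at the first start: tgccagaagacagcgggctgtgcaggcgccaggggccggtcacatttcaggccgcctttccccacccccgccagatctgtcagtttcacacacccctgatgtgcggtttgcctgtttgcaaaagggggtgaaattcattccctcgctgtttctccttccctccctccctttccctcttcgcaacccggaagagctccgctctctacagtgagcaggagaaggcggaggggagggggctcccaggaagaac
GATA3 at the fourth start: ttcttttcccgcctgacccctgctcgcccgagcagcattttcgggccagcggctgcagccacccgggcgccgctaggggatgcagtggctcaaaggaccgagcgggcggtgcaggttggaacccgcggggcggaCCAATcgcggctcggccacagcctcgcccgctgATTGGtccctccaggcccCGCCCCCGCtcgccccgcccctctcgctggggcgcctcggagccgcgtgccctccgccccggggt
SIX2: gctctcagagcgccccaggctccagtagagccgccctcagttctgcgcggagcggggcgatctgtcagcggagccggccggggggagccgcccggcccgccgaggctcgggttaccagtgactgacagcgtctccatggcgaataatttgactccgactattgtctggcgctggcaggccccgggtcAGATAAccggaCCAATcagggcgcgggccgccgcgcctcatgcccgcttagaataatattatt
The first GATA3 window holds none of these letters and is therefore in lower case throughout. The fourth holds 1 WT1-type motif, the one such motif in the member windows, and 2 CCAAT boxes, with the WT1-type motif and the second box on the opposite strand. Of the other 4 GATA3 windows 1 holds a CCAAT box and 3 hold no motif searched. The SIX2 window holds 1 GATA motif and 1 CCAAT box. A GATA motif was present in 2 of the 14 member windows, against 22.3% of all 35116 windows, a WT1-type motif in 1 of 14, against 5.37% of all windows, and a CCAAT box in 4 of 14, against 32.0%. These matches describe letters in a window and were not tested as binding sites.

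The targeted transcript was read by 1 probe set. BAHD1 had signals of 36.6, 46.8 and 41.2 in BAHD1 siRNA cells, against 62.9, 55.7 and 46.7 in control siRNA cells, on the linear scale of the deposited table. The highest BAHD1 siRNA value lay just above the lowest control value, so the groups overlapped. BAHD1 was at 76.0% of its control level on the log2(signal + 1) scale, a log2 fold change of -0.40 ± 0.19 (SE, 3 arrays per group), which did not pass (limma adjusted p = 0.251). BAHD1 protein was not analysed here.

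A probe set was tested when at least 3 of the 6 arrays had a signal over 17.9, which is the median over the whole table without control probe sets. Of the 22 member probe sets 10 were kept, each above that level on all 6 arrays, and 12 were not kept. The kept ones cover 7 genes, with 2 probe sets each for SIX2, SALL1 and GATA3 and 1 each for PAX2, PAX8, WT1 and EYA1. Called probe sets are those with an adjusted p under 0.05 in limma, in a fit over all 27458 kept probe sets that lets the prior variance depend on average signal (called the intensity-trend fit here). That fit called 4.45% of all probe sets kept, 596 higher (2.17%) and 625 lower (2.28%), and 1 of the 10 member probe sets, which was higher. The split moved to 192 higher and 1515 lower when the array medians were centred, which lowered the median log2 fold change of all kept probe sets by 0.14. A fit in which a single variance prior serves every probe set called 0 probe sets and no member (limma, with 4843 of all probe sets, or 17.6%, and 5 of the 10 member probe sets at an unadjusted p under 0.05). Those 5 included SIX2 206511_s_at, which was lower, and did not include PAX8 121_at.

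**Figure D1:**
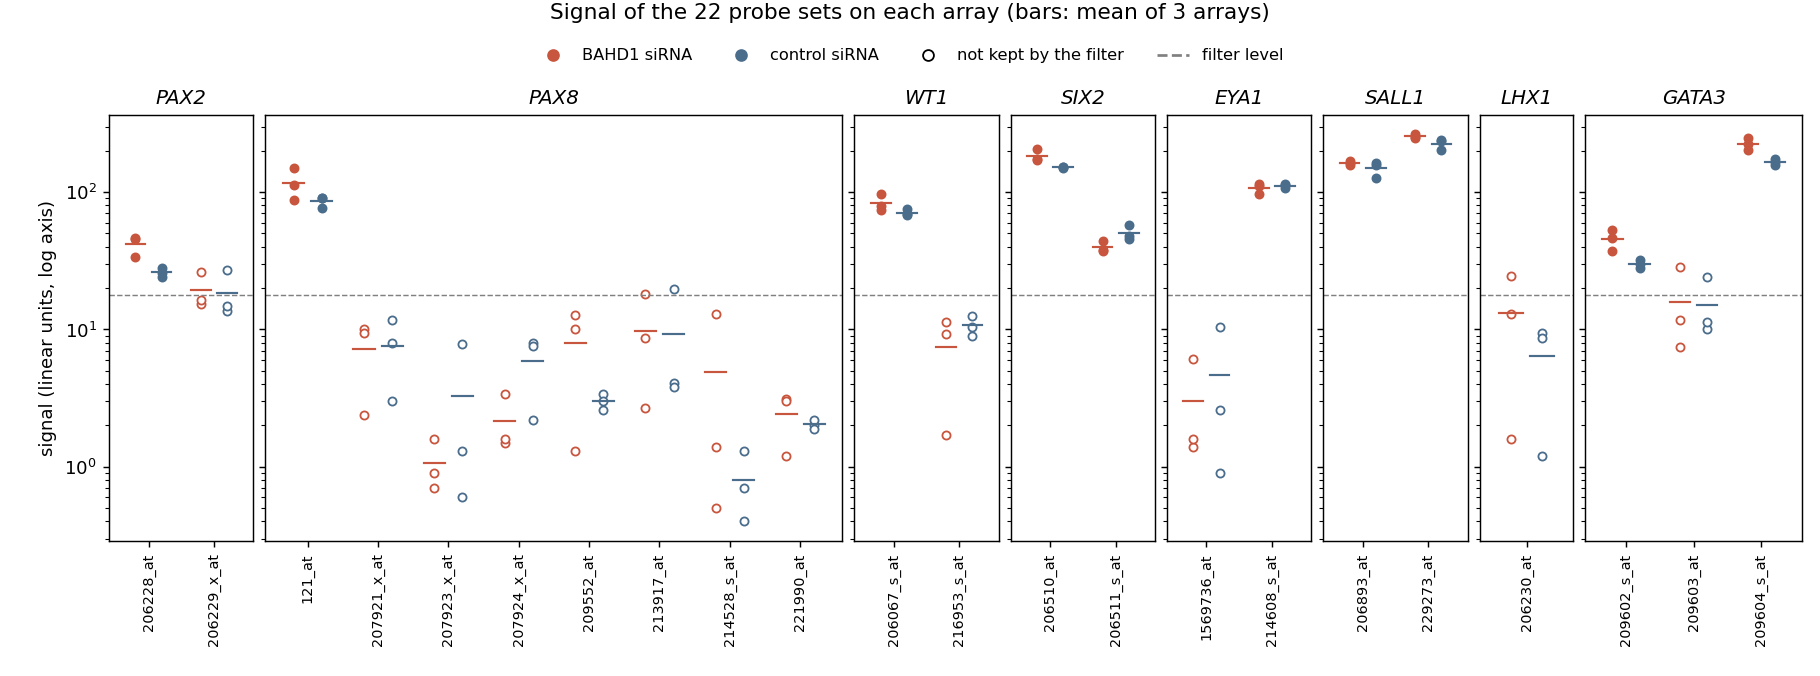
Signal of each of the 22 probe sets on each array, in linear units on a log axis, in 1 panel per gene, with BAHD1 siRNA left of control siRNA, bars at the mean of 3 arrays, and a dashed line at the filter level of 17.9. Filled points are the 10 kept probe sets, all of which lie above the line on all 6 arrays, and open points are the 12 that were not kept.

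GATA3, the duct and collecting system factor, was read by 3 probe sets. The brightest, 209604_s_at, had signals of 201.8, 246.6 and 223.9 in BAHD1 siRNA cells, against 164.7, 173.7 and 157.7 in control siRNA cells. All 3 BAHD1 siRNA arrays were above all 3 control arrays. Its mean log2 signal was 7.81 ± 0.14 in BAHD1 siRNA cells and 7.38 ± 0.07 in control siRNA cells (SD, n = 3 each). GATA3 rose by a log2 fold change of 0.43 ± 0.10 (SE), with a 95% interval of 0.21 to 0.66 (limma intensity-trend fit, adjusted p = 0.0358). The exact two-sided permutation p was 0.1, the smallest that 3 samples against 3 can give. Relative to the median of all kept probe sets the difference was 0.42. The call ended without any 1 of 5 of the 6 arrays (limma adjusted p = 0.0711 to 0.146), and was kept without BAHD1 siRNA replicate 1. It also ended in the fit with one variance prior, with no filter and with array medians centred (limma adjusted p = 0.166, 0.0823 and 0.172).

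The second GATA3 probe set lay in the same direction. Probe set 209602_s_at had signals of 46.5, 37.5 and 52.7 in BAHD1 siRNA cells, against 30.2, 31.8 and 28.2 in control siRNA cells. The groups again did not overlap, and the log2 fold change was 0.57 ± 0.21 (SE), which did not pass (limma adjusted p = 0.141). Over the 6 arrays the 2 probe sets correlated at r = 0.748 on the log2 scale, a description of 6 points that share 2 groups. The third, 209603_at, was not kept: its signals were 28.3, 11.7 and 7.5 in BAHD1 siRNA cells and 10.1, 23.9 and 11.3 in control siRNA cells, with no separation.

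The genes whose signal followed GATA3 209604_s_at most closely over the 6 arrays were TK2, the mitochondrial thymidine kinase, BYSL, a ribosome assembly factor, and SLC9A8, a sodium-proton exchanger. Their Pearson correlations were 0.996, 0.996 and 0.994 over 6 arrays, out of 23544 probe sets of other single genes, of which 561 had a correlation above 0.9. These correlations describe 6 points in 2 groups and were not tested.

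Among the paired-box factors, PAX2 had the largest log2 fold change of any kept member probe set. Probe set 206228_at gave 33.7, 45.6 and 46.1 in BAHD1 siRNA cells, against 24.3, 25.9 and 27.9 in control siRNA cells. No BAHD1 siRNA value reached down to the control values. The log2 fold change was 0.65 ± 0.22 (SE), or 1.57-fold, with a 95% interval of 0.17 to 1.14, and did not pass (limma adjusted p = 0.119). With 16 in place of 1 added to the signal before the logarithm, it was 0.45. The other PAX2 probe set, 206229_x_at, was above the filter level on 2 arrays, one of each group. It gave 15.4, 16.4 and 26.3 in BAHD1 siRNA cells and 27.0, 13.7 and 14.7 in control siRNA cells, so the groups overlapped. By Affymetrix naming, the x marks probes that may also bind other transcripts.

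PAX8, the paralog of PAX2, was read by 8 probe sets, of which 1 was kept. Probe set 121_at gave 88.1, 112.1 and 149.4 in BAHD1 siRNA cells, against 76.2, 90.7 and 91.1 in control siRNA cells. BAHD1 siRNA replicate 1 lay inside the control range and replicate 3 far above it. The log2 fold change was 0.41 ± 0.17 (SE), with an adjusted p of 0.204 in limma, and 0.21 without BAHD1 siRNA replicate 3. The other 7 PAX8 probe sets had signals between 0.4 and 19.7, and their groups overlapped.

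For the progenitor factor SIX2 the 2 probe sets went opposite ways. Probe set 206510_at gave 170.8, 205.6 and 174.2 in BAHD1 siRNA cells, against 153.3, 149.8 and 153.1 in control siRNA cells, and 206511_s_at gave 37.0, 44.3 and 37.7 in BAHD1 siRNA cells, against 57.9, 47.9 and 45.2 in control siRNA cells. The first was higher on every BAHD1 siRNA array and the second was lower on every one. Their log2 fold changes were 0.26 ± 0.11 and -0.33 ± 0.19 (SE), and neither passed (limma adjusted p = 0.174 and 0.338). The log2 ratio of the first to the second within each array was 2.18, 2.19 and 2.18 in BAHD1 siRNA cells, against 1.39, 1.62 and 1.74 in control siRNA cells. The mean ratio was higher by 0.60, which follows from the opposite directions of the probe sets and was not tested. It was nearly constant over the BAHD1 siRNA arrays and spread over the control arrays. A direction for SIX2 as a gene cannot be given from these probe sets, and which transcripts each one reads was not examined.

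**Figure D2:**
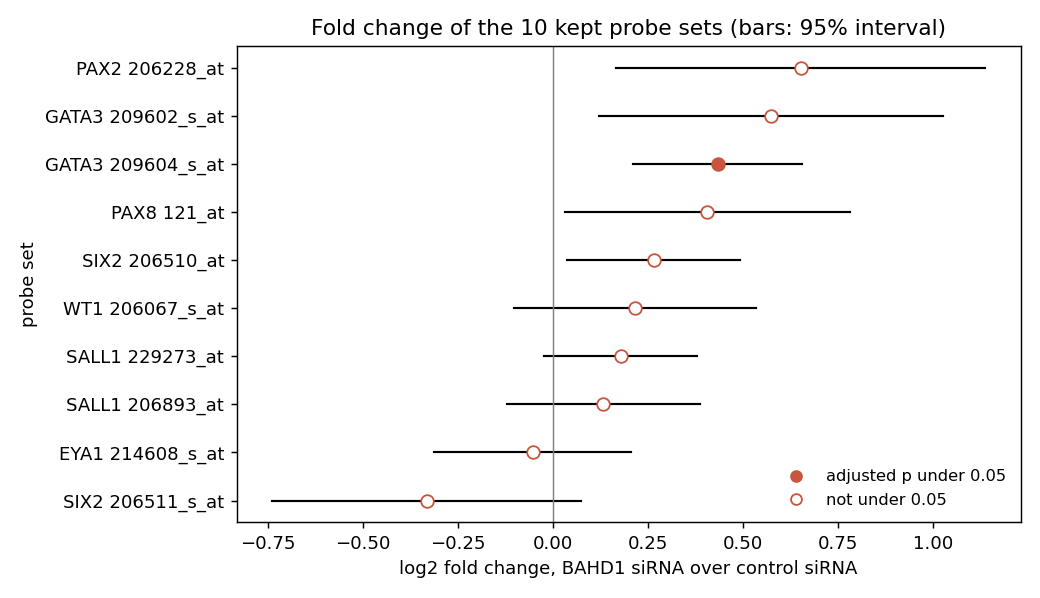
Log2 fold change of BAHD1 siRNA over control siRNA for the 10 kept probe sets, with 95% intervals, in order of size. The filled point is GATA3 209604_s_at at 0.43, the one probe set past the threshold, while SIX2 206511_s_at at -0.33 and EYA1 214608_s_at at -0.05 are the 2 below 0.

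No kept probe set of the remaining progenitor factors passed the threshold. WT1 probe set 206067_s_at gave 78.6, 73.6 and 96.2 in BAHD1 siRNA cells, against 69.6, 67.9 and 74.9 in control siRNA cells, a log2 fold change of 0.21 ± 0.15 (SE; limma adjusted p = 0.438). One BAHD1 siRNA array lay within the control range, and the difference was 0.10 without BAHD1 siRNA replicate 3 and 0.077 with array medians centred. The other WT1 probe set, 216953_s_at, stayed below the filter level on all arrays, at 1.7 to 12.6.

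SALL1, the zinc finger repressor, was read by 2 probe sets well above the filter level. Probe set 229273_at gave 249.4, 250.9 and 263.8 in BAHD1 siRNA cells, against 204.3, 233.8 and 238.6 in control siRNA cells, and its groups did not overlap. Its log2 fold change was 0.18 ± 0.09 (SE; limma adjusted p = 0.299), and was 0.11 without control siRNA replicate 1 and 0.040 with array medians centred. Probe set 206893_at gave 156.6, 161.9 and 167.9 in BAHD1 siRNA cells, against 157.9, 125.8 and 162.6 in control siRNA cells, with overlap. Its log2 fold change of 0.13 ± 0.12 (SE; limma adjusted p = 0.561) was 0.016 without control siRNA replicate 2 and turned to -0.0058 when array medians were centred.

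EYA1, the coactivator that partners SIX2, had the smallest difference. Probe set 214608_s_at gave 111.0, 97.1 and 114.3 in BAHD1 siRNA cells, against 112.7, 114.9 and 106.6 in control siRNA cells. Its log2 fold change of -0.05 had a 95% interval of -0.31 to 0.20 (limma adjusted p = 0.838), and the groups overlapped. The second EYA1 probe set, 1569736_at, was at 0.9 to 10.5 on all arrays. LHX1 was read by 1 probe set, at 1.6, 24.7 and 13.0 in BAHD1 siRNA cells and 9.4, 1.2 and 8.6 in control siRNA cells. Only 1 of these 6 values was above the filter level, so no direction is given for LHX1.

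As a group the kept member probe sets leaned upward, with 8 of 10 log2 fold changes above 0, against 52% of all kept probe sets. Their median log2 fold change was 0.24, against 0.01 over all kept probe sets. Groups did not overlap for 6 of the 10 (5 higher, 1 lower), against 25.6% of all kept probe sets (13.4% higher, 12.2% lower). At an unadjusted p under 0.05 there were 5 of 10, against 20.9% of all, and all 5 were higher, against 11% of all. The count in either direction was 2 without BAHD1 siRNA replicate 2, 2 without BAHD1 siRNA replicate 3 and 3 with array medians centred. The 3 with array medians centred were PAX2 206228_at, GATA3 209604_s_at and SIX2 206511_s_at, and this SIX2 probe set was lower, at -0.47. These are descriptions of 10 probe sets for 7 genes, and probe sets of 1 gene share its transcripts. BAHD1 siRNA replicate 1 had the lowest signal of its group for 7 of the 10 and the highest for 0. BAHD1 siRNA replicate 3 had the highest for 7 and the lowest for 0. Of the 12 probe sets that were not kept none separated the groups, and in the same fit run without a filter their lowest adjusted p was 0.569 in limma, where 0.729% of all probe sets were called.

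**Figure D3:**
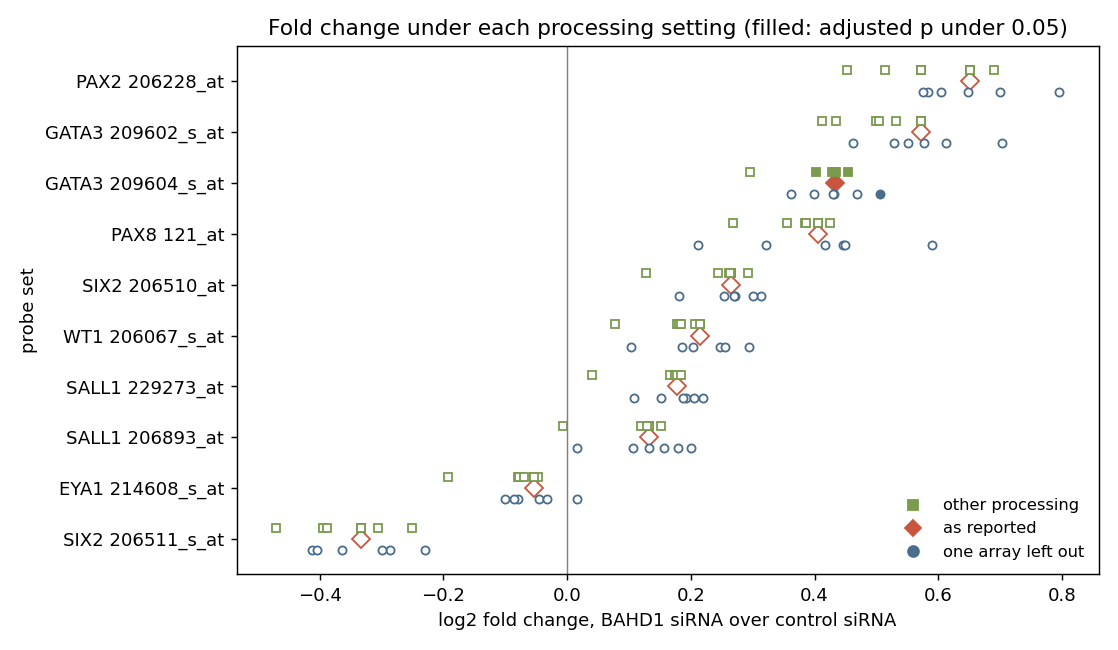
Log2 fold change of each kept probe set as reported (diamonds), with one array left out (circles) and under other processing (squares), filled where the adjusted p was under 0.05. GATA3 209604_s_at ranges from 0.29 to 0.51 and is the one probe set with filled points, while EYA1 214608_s_at and SALL1 206893_at cross 0.

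Companion genes of kidney development came from 3 lists: partners and paralogs of the members, other transcription factors of kidney development, and ligands, receptors and regulators of nephron induction. Of 94 genes 85 had a probe set of their own and 63 were kept, each represented by its brightest probe set. In the intensity-trend fit 1 rose, 1 fell and 61 did not pass, against 5.52% of all 12529 genes called. Their median log2 fold change was 0.09, against 0.02 over all genes. Of the 63, 40 were above 0 and 23 below, against 6816 above and 5713 below over all genes. Groups did not overlap for 16 of the 63, against 28.2% of all genes.

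Among partners and paralogs, 22 genes were kept and 1 rose. BASP1, a known transcriptional corepressor of WT1, had signals of 451.2, 434.2 and 428.3 in BAHD1 siRNA cells, against 282.0, 311.9 and 307.1 in control siRNA cells. The groups were far apart relative to the spread within each. BASP1 rose by a log2 fold change of 0.54 ± 0.08 (SE; limma adjusted p = 0.00595), and it passed in 15 of 16 alternatives, the exception being the fit with one variance prior (limma adjusted p = 0.131). ZFPM1, a cofactor of GATA proteins, had a log2 fold change of 0.67 ± 0.20 (SE; limma adjusted p = 0.0708). PAXIP1, which links PAX2 to histone methylation, had -0.23 ± 0.08 (SE; limma adjusted p = 0.126). Neither passed, though the groups did not overlap in either.

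Of the 20 other transcription factors kept, none passed in the intensity-trend fit, and 10 were above 0 and 10 below. CITED1, a coregulator that marks nephron progenitors, had the smallest p of this list, with 1284.1, 1215.8 and 1095.9 in BAHD1 siRNA cells, against 1027.9, 1003.2 and 963.5 in control siRNA cells. Its log2 fold change was 0.26 ± 0.07 (SE; limma adjusted p = 0.0575). It passed in 4 of 16 alternatives (limma adjusted p = 0.0309 to 0.0400), and was 0.12 with array medians centred (limma adjusted p = 0.551). FOXC2, a forkhead factor, and ESRRG, an orphan nuclear receptor, had log2 fold changes of 0.64 and 0.28 (limma adjusted p = 0.0968 and 0.199).

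Of the 21 ligands, receptors and regulators kept, 1 fell. SLIT2, a secreted ligand that in mouse limits where the ureteric bud forms, had 962.5, 990.7 and 892.5 in BAHD1 siRNA cells, against 1270.7, 1321.2 and 1367.0 in control siRNA cells. No BAHD1 siRNA value came near the control values. Its log2 fold change was -0.48 ± 0.07 (SE; limma adjusted p = 0.00536), and its other 2 kept probe sets had -0.18 and -0.20 with overlapping groups. The call ended in the fit with one variance prior (limma adjusted p = 0.134) and was kept in the other 15 alternatives. RET, the receptor for GDNF, had 31.5, 56.4 and 39.4 in BAHD1 siRNA cells, against 21.5, 23.0 and 16.8 in control siRNA cells. Its log2 fold change of 0.99 ± 0.27 (SE) did not pass (limma adjusted p = 0.0568), and its second kept probe set had 0.48 with overlap. Both probe set names carry the x that marks probes that may also bind other transcripts. The lowest control value, 16.8, lay below the filter level of 17.9, and with log2(signal + 16) the first probe set had 0.66. SPRY2, an inhibitor of receptor tyrosine kinase signalling, had 0.26 (limma adjusted p = 0.135).

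**Figure D4:**
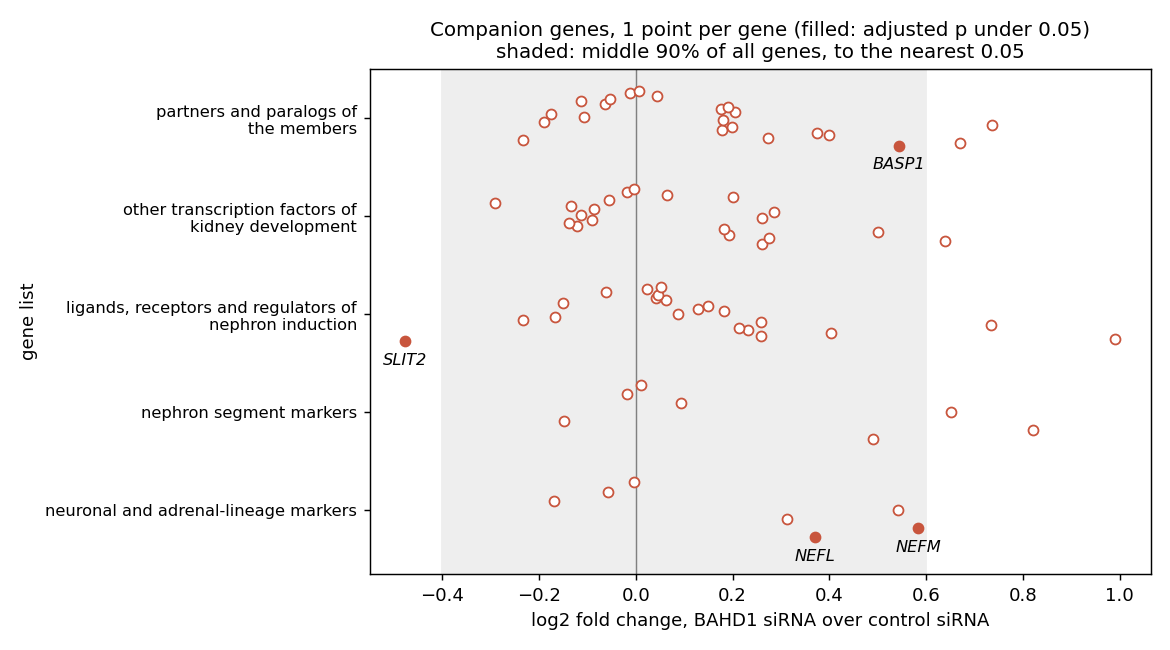
Log2 fold change of BAHD1 siRNA over control siRNA for each kept gene of 5 lists, 1 point per gene, with the middle 90% of all genes shaded (-0.4 to 0.6). Filled points passed the threshold: BASP1, NEFL and NEFM right of 0 and SLIT2 left of it.

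The kidney label of these cells was set against markers of differentiated nephron segments. Of 17 measured markers 7 were kept and none passed in the intensity-trend fit. AQP3, a collecting duct water channel, had 0.49 (limma adjusted p = 0.0918), the podocyte genes SYNPO and PTPRO had 0.82 and -0.15 (limma adjusted p = 0.359 and 0.505), and the 3 kept probe sets of AQP3 ran from -0.66 to 1.54. The second kept PTPRO probe set had 0.36, opposite in sign, and SYNPO was 1.24 without control siRNA replicate 1 and 0.44 without control siRNA replicate 2. The podocyte gene NPHS1, the proximal tubule genes CUBN, AQP1, SLC34A1 and SLC22A6, the loop and distal tubule genes SLC12A1, SLC12A3 and CALB1, and CDH16 and CDH1 were not kept. Summed log2 signal of the 7 kept markers was 40.5 to 43.6 in BAHD1 siRNA cells and 38.7 to 41.8 in control siRNA cells.

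Some markers of other lineages differed with the group. Of 12 neuronal and adrenal-lineage markers measured 7 were kept, and 2 of them, both neurofilament genes, rose: NEFM by 0.58 ± 0.15 and NEFL by 0.37 ± 0.10 (log2 fold change ± SE; limma adjusted p = 0.0473 and 0.0457). These calls are 2 of 7, against 5.52% of all 12529 genes called. The NEFM call was lost in 10 and the NEFL call in 8 of 16 alternatives. Of the other 2 kept NEFL probe sets, 1 had 0.75 (limma adjusted p = 0.0498) and 1 had 0.19 with overlapping groups (limma adjusted p = 0.239). The name of the NEFL probe set at 0.75 carries the x that marks probes that may also bind other transcripts. The third smallest p was that of INA, another neuronal intermediate filament gene, at 0.31 (limma adjusted p = 0.235). STMN2 had 0.54, while CHGB, ENO2 and TUBB3 had -0.17, -0.06 and -0.0037, and none of them passed. Of the 7 kept markers 4 were above 0 and 3 below. Summed log2 signal of the 7 was 50.4 to 51.2 in BAHD1 siRNA cells and 48.2 to 49.9 in control siRNA cells. The sum over all 12529 genes was also higher without overlap. It was 91941.9 to 92367.8 in BAHD1 siRNA cells and 91344 to 91689.5 in control siRNA cells. CHGA, DBH, TH, NR5A1 and STAR were not kept. Of 15 stroma, endothelium and blood markers 6 were kept, COL3A1 fell by 0.76 on the log2 scale (limma adjusted p = 0.0206, a call lost in 6 of 15 alternatives), and the summed signal overlapped at 33.4 to 34.8 in BAHD1 siRNA cells and 33.8 to 34.5 in control siRNA cells. Other kept COL3A1 probe sets had -0.91 and -0.69 without overlap and did not pass (limma adjusted p = 0.0863 and 0.115). The name of the COL3A1 probe set at -0.91 also carries the x. COL1A1 and HBB had 0.37 and 0.32 and did not pass (limma adjusted p = 0.152 and 0.621). Other kept COL1A1 probe sets had -0.37 and 0.30 with overlapping groups. PTPRC, CD3E, CD14, CDH5, KDR and TEK were not kept. Of 7 general markers measured 6 were kept, and KRT19 was not kept. The mesenchymal filament gene VIM fell by 0.32 (limma adjusted p = 0.0318, a call lost in 7 of 16 alternatives). LGALS1 and CDH2 had -0.35 and 0.08 (limma adjusted p = 0.142 and 0.502). Another kept CDH2 probe set had -0.14 with overlapping groups. No marker of these lists was at 0 on all arrays.

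All 24 control probe sets for the poly-A RNAs that the Affymetrix protocol adds before labelling were higher on BAHD1 siRNA arrays without overlap, at a median log2 difference of 0.58. Of kept probe sets, 60.9% in the dimmest quartile and 42.1% in the brightest were higher in BAHD1 siRNA cells. PAX2 206228_at and GATA3 209602_s_at lay in the dimmest quartile, whose median log2 fold change was 0.11, and GATA3 209604_s_at lay in the third, with a median near 0. With the signal-dependent shift removed these 3 were at 0.57, 0.50 and 0.43. The part of the poly-A difference, and of the neurofilament rise, in the GATA3 result was not tested.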

How the data were processed

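The table deposited by the authors covers all 6 arrays and gives signal intensity for each probe set, linear and rounded to 1 decimal. Per the submitters' processing notes GCOS and GCRMA were used, with neither role nor version. The trimmed mean (2% off each end) was 100.0 for every array, so the arrays had been scaled to a common target, and whether GCRMA touched these values is unsettled. No detection calls were used here, so dim signals have no stated background, and the number of arrays limits the precision.

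Samples were grouped by their titles. The values were taken as log2(signal + 1), since the table was linear. Control probe sets (62) were left out and the filter of at least 3 arrays above 17.9 was applied. The 2 groups were compared with limma 3.58.1 under R 4.3.3 (eBayes with trend and robust, no covariate, 6 arrays), with Benjamini-Hochberg adjustment over all kept probe sets and a threshold of 0.05. Intervals are at 95% for the difference between the group means. They rest on the variance between these samples, moderated over the probe sets in the fit. The code was tested on simulated arrays with known changes.

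Members, lists and the choice of the intensity-trend fit were made with earlier results of these data known. Named genes were all members, BAHD1, and in each list those called and the 3 smallest p-values, with all kept genes of the neuronal list. COL1A1, HBB, LGALS1, CDH2 and others appear by that rule. Genes listed as not kept are named as the lists give them. Symbols came from the platform annotation, and 0 needed an update against RefSeq. Promoter windows came from RefSeq, GRCh38.p14, without the 50 bases after the start. The cells were 1 line, and no batch is given in the labels.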

Additional observations from a re-analysis of the deposited data

How the results depend on the processing

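Of the 10 kept member probe sets, none other than GATA3 209604_s_at passed the threshold in any of the 16 alternatives run. The count of members past the threshold, 1 as reported, was 0 with one variance prior, with no filter and with array medians centred, and 0 to 1 with one array left out. It stayed at 1 under a stricter filter, a filter on the mean of all arrays, quantile normalization, log2(signal + 16), array weights and, chosen after seeing the data, removal of the signal-dependent shift. The count over all probe sets, 1221 as reported, was 0 with one variance prior and 398 with no filter, and 177 to 1174 with one array left out. It was 295, 279, 186 and 177 without control siRNA replicate 1, control siRNA replicate 2, BAHD1 siRNA replicate 2 and BAHD1 siRNA replicate 3. The count of companion kidney development genes, 2 as reported, was 0 with one variance prior, 3 with the stricter filter, quantile normalization, array medians centred, array weights or the signal-dependent shift removed, and 2 to 4 with one array left out, 4 being the value without BAHD1 siRNA replicate 1. The neuronal marker count, 2 as reported, was 0 with one variance prior, no filter or array medians centred, 1 after quantile normalization or with the signal-dependent shift removed, and 0 to 1 with one array left out. The stroma, endothelium and blood marker count, 1 as reported, was 0 with one variance prior, no filter or the stricter filter, and 0 to 1 with one array left out. In the replicate block fit, with the numbers in the titles as pairs, 1629 probe sets, 1 member and 4 companion genes passed. Deviations of same-numbered arrays from their group means correlated at 0.0101, 0.0102 and 0.0239, so the numbers were not taken as pairs. CITED1 passed with the stricter filter, quantile normalization, the replicate block and the signal-dependent shift removed (limma adjusted p = 0.0335, 0.0332, 0.0309 and 0.0400). The calls of BASP1 and SLIT2 were kept in 15 of 16 alternatives, while those of NEFL, NEFM and VIM were lost in 8, 10 and 7 of 16 and that of COL3A1 in 6 of 15. Leaving out one array gave EYA1 214608_s_at values between -0.10 and 0.017, the second of them without BAHD1 siRNA replicate 2. SALL1 206893_at was at -0.0058 and CDH2 at -0.053 with array medians centred. With the median over all probe sets of a gene in place of the brightest, WT1 was at -0.26 and SIX2 at -0.034, where dim probe sets weigh as much as bright ones. The BAHD1 difference ran from -0.53 to -0.30 and did not pass in any alternative. The cause of these changes was not tested. Leaving out an array leaves fewer samples, and having no filter adds dim probe sets to the fit.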
